A study of Mus musculus with 12 samples.

Results

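D cyclins, the kinases Cdk4 and Cdk6, and the inhibitors of these kinases were followed in lineage-depleted bone marrow of E4bp4 knockout (E4bp4-/-) and wild type (E4bp4+/+) mice. The members were given by name: Ccnd1, Ccnd2, Ccnd3, Cdk4, Cdk6, Cdkn1a, Cdkn1b, Cdkn1c, Cdkn2c and Cdkn2d. A gene was followed on the transcript cluster annotated to it alone, and where there was more than 1, on the brightest over all arrays. This gave 9 of the 10 listed genes, out of 19937 genes with a transcript cluster of their own. Cdkn1a was not analysed here, because its transcript cluster is annotated to a second gene, 4930567H12Rik, as well. All 9 passed the filter on low levels, which kept a transcript cluster that reached the 20th percentile of its array on at least 1 array.

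The study asked which genes E4bp4, also named Nfil3, regulates in mouse bone marrow. Each of 12 arrays (Affymetrix Mouse Gene 1.0 ST) held RNA of 1 mouse, 6 of each genotype. Marrow was crushed from the hind legs, and magnets removed the cells positive for CD2, CD11b, B220, Ter119, GR1 or NK1.1. No treatment is named for either genotype. The sources used here give no strain, age or sex, nor which part of the gene was deleted. Levels are log2 values, so a difference of 1 is a doubling. All differences below are knockout minus wild type.

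D-type cyclins are the mitogen-induced partners of Cdk4 and Cdk6, and these complexes phosphorylate the retinoblastoma protein at the entry into the cell cycle. Phosphorylation releases E2F factors, which switch on cyclin E and the genes of DNA replication. Inhibitors of the Ink4 family, here Cdkn2c (p18) and Cdkn2d (p19), bind Cdk4 and Cdk6 alone, while those of the Cip/Kip family, here Cdkn1b (p27) and Cdkn1c (p57), bind cyclin-kinase complexes more broadly. In blood formation, Cdkn1c is known from quiescent stem cells, Cdk6 from the exit of stem cells from quiescence, and Ccnd3 from erythroid and lymphoid precursors.

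The promoters of members are shown early because Ccnd3 and Cdkn2c varied together across the arrays and Cdk6 differed the other way. RefSeq promoter windows of GRCm38.p6, 250 bases before to 50 after a start, were found for 7 of the 10 listed genes, 10 windows in all. There was no window for Ccnd1, Ccnd2 or Cdkn1c, so the searches below do not cover them. The 7 genes include Cdkn1a, whose level was not analysed. The E4BP4 motif (D-box) was searched as TTATGTAA and TTACGTAA and the E2F motif as TTTGGCGC and TTTCGCGC, on both strands, where TTATGTAA also matches as its reverse complement and TTACGTAA is its own. Of the 10 windows, 0 held a D-box and 0 an E2F match, against 1.06% and 0.813% of all 32851 windows of the same length. The GC box GGGCGG, added after these results, was in 7 of the 10 windows and in 35.7% of all. CCAAT, also added, was in 4 of the 10 and in 37.4% of all. These counts describe the letters in the windows only. Below, capitals mark GC boxes and CCAAT on either strand, and none of these overlap in the windows printed. The windows are chr4:109666707-109667006 (minus strand) for Cdkn2c, chr17:47593217-47593516 (plus) for Ccnd3 and chr5:3343643-3343942 (plus) for Cdk6.
Cdkn2c: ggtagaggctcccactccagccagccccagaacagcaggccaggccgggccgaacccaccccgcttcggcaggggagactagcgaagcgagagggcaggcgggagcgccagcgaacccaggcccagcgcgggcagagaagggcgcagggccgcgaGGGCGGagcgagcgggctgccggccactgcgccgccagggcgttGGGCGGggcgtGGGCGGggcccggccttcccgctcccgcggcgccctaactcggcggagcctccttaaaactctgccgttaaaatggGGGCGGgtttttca
Ccnd3: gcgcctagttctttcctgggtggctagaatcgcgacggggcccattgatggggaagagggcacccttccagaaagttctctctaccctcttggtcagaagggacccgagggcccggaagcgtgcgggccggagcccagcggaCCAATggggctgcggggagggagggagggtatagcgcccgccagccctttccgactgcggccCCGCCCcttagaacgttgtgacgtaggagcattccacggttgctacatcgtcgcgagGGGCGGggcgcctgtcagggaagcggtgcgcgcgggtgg
Cdk6: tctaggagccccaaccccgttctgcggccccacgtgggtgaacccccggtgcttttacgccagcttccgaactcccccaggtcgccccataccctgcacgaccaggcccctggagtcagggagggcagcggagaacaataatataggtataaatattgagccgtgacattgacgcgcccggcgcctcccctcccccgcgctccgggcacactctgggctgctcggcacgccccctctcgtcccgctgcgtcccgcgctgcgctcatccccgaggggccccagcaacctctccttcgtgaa
The Cdkn2c window held 4 GC boxes and 33 CpG pairs, against a median of 7 CpG pairs over all windows. The Ccnd3 window held 2 GC boxes, 1 CCAAT and 28 CpG pairs. The Cdk6 window held 27 CpG pairs but 0 GC boxes and 0 CCAAT. Cdkn2c and Ccnd3 each had another window, with 0 and 2 GC boxes.

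Array quality and cell makeup were checked first. Array medians lay between 6.50 and 6.62. Nfil3, the targeted gene, was at 6.34 to 6.92 on the knockout arrays and 6.94 to 7.66 on the wild type arrays, with no overlap (difference -0.68 ± 0.127 log2, SE; limma adjusted p 0.140). The brightest stem and progenitor markers were Kit (knockout and wild type means of 11.26 and 11.07) and Cd34 (11.54 and 11.42). Others of that list were far dimmer, down to 5.34 and 5.21 for Mecom. Some markers of other cells were brighter still, such as Mpo of the neutrophil list (13.43 and 13.41) and Car1 of the erythroid list (13.86 and 13.86). Of the antigens removed by the magnets, Klrb1c (NK1.1) lay below the filter, and Cd2 was at 5.22 and 5.19, near the 20th percentile of the arrays (4.93 to 4.99). Itgam (CD11b) was at 7.69 and 7.39. Knockout replicate 1 stood apart: Xist was at 6.08, against 12.1 to 12.65 on the others, and the Y-linked Uty at 7.70, against at most 4.66. These are the levels of a male mouse, and those on the other arrays of females, although the labels give no sex. Knockout replicate 1 also had the highest neutrophil marker mean (10.2, against at most 8.75 on the other knockout arrays). Results are therefore given with and without this array where it matters.

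In limma, 0 of 29541 transcript clusters (0%) passed the threshold of 0.05 on the Benjamini-Hochberg adjusted p, which was 0.109 at its lowest. None of the 9 members passed either; their smallest adjusted p was 0.148. At an unadjusted limma p under 0.05, 5 of 9 members were counted, or 55.6%, against 14.9% of all transcript clusters. The members were chosen with earlier results of these data known, so this count is not independent evidence. Of the 5 members, Cdk6, Ccnd2 and Cdkn1c were higher in the knockout, where 8.47% of all transcript clusters were called, and Cdkn2c and Ccnd3 were lower, where 6.39% were. Without knockout replicate 1, 3 members were counted, and likewise without knockout replicate 2 and without wild type replicate 6. Genotypes did not overlap for 1 member, Cdkn1c, and for 1.27% of all transcript clusters. The median difference was -0.026 over the members and 0.0152 over all; without regard to sign the medians were 0.141 and 0.0726. The share of higher among all unadjusted calls was 57%. Median centring of the arrays made it 22%, and quantile normalisation 46.9%. The signs of all members but Ccnd1 were the same under both of those scalings and every other alternative, and Ccnd1 changed sign only when certain single arrays were left out.

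**Figure D1:**
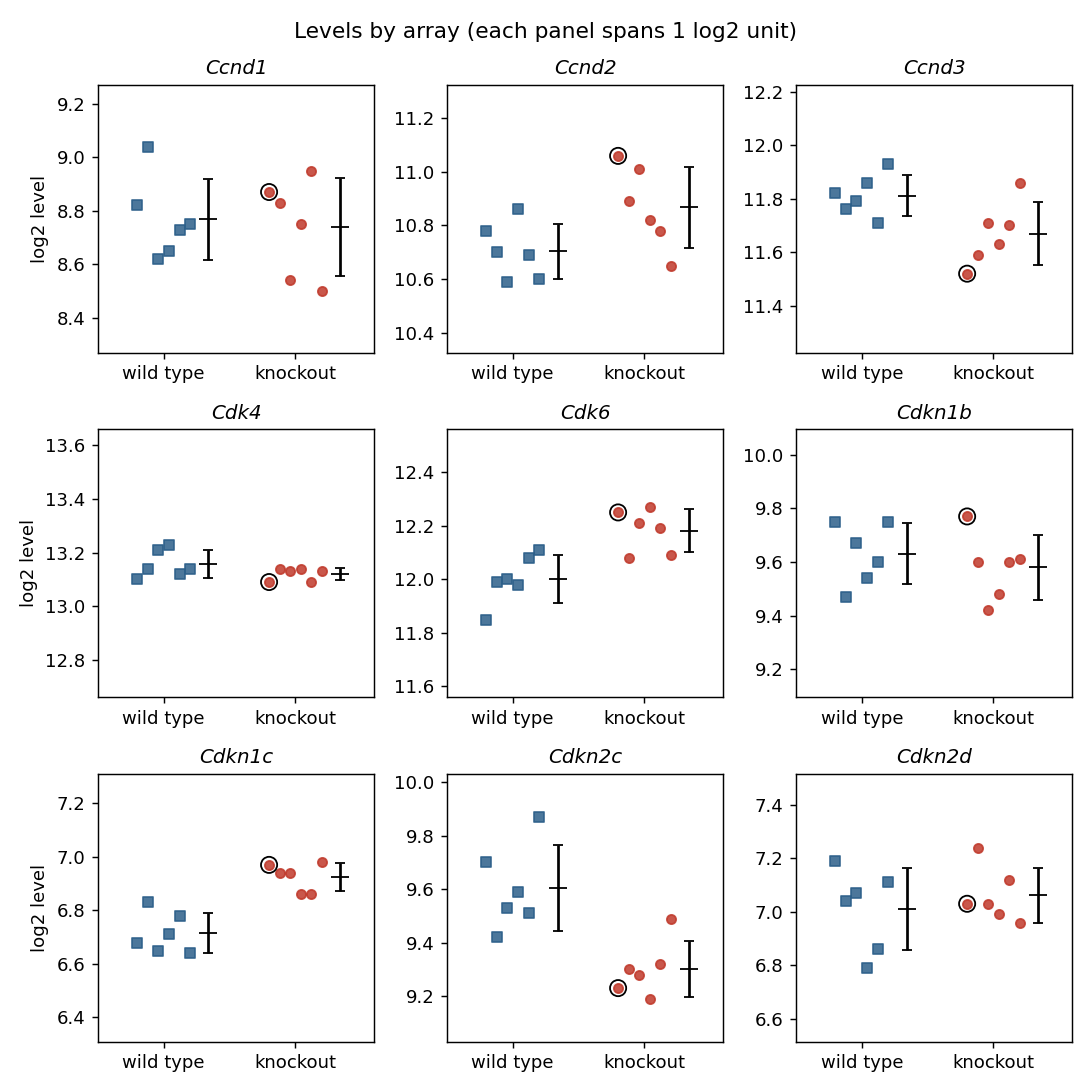
Log2 level of each member on every array, with 6 wild type (blue squares) and 6 knockout (red circles) arrays per panel in replicate order; bars are mean ± SD, and the ring marks knockout replicate 1. Each panel spans the same range, and the genotypes separate for Cdkn1c alone.

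Cdkn1c, the p57 inhibitor of the Cip/Kip family, was higher in every knockout array than in any wild type array. Its levels on knockout replicates 1 to 6 were 6.97, 6.94, 6.94, 6.86, 6.86 and 6.98. On wild type replicates 1 to 6 they were 6.68, 6.83, 6.65, 6.71, 6.78 and 6.64. The knockout arrays were thus close together, and the gap to the wild type was small in absolute size. The levels were also low, little above the array medians of 6.50 to 6.62. The difference was 0.21 ± 0.0429 log2 (SE), a 1.16-fold higher level, with means of 6.93 ± 0.0502 (SD, n = 6) and 6.72 ± 0.0763 (n = 6). The limma adjusted p was 0.148, and the two-sided exact permutation p of the 12 values was 0.00216, the smallest that 6 arrays against 6 can give. With each array left out the difference stayed between 0.20 and 0.23, with adjusted p from 0.116 to 0.290. It was 0.17 under both other scalings and 0.20 without knockout replicate 1.

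Stem and progenitor markers were higher on the same arrays. Of 10 such genes tested, 9 were higher in the knockout and Mllt3 was lower (-0.19 ± 0.0943). At an unadjusted limma p under 0.05 there were 6, all higher: Tek, an angiopoietin receptor (0.19 ± 0.0502), Gata2 (0.17 ± 0.0516), Kit, Flt3, Mecom and Slamf1. Of all transcript clusters, 8.47% were called higher. Mecom was dim, at means of 5.34 and 5.21, with the 20th percentile of the arrays at 4.93 to 4.99. None of the 10 passed the adjusted threshold, and median centring left 3 of the list higher and 1 lower at an unadjusted p under 0.05. The mean log2 level of the list was 8.42 to 8.58 on the knockout arrays and 8.28 to 8.41 on the wild type arrays, with no overlap. Megakaryocyte markers, 6 of 6 higher, averaged 9.94 to 10.83 and 9.81 to 10.40. With genotype means removed, Cdkn1c had no positive correlation with either list over all 12 arrays: r was -0.10 with the stem and progenitor list (permutation p = 0.758; Spearman rho = -0.10, permutation p = 0.754) and -0.34 with the megakaryocyte list (permutation p = 0.271; rho = -0.31, permutation p = 0.356). Without the arrays farthest from the list's median, knockout replicate 1 with knockout replicate 6 or with wild type replicate 2, these were -0.17 and 0.22. The sign of the megakaryocyte relation thus rested on the arrays left out. In bulk RNA, a larger share of cells that express a gene and more of its RNA per cell cannot be told apart.

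Cdkn2c, the p18 inhibitor of the Ink4 family, was lower in the knockout and had the largest difference of the 9 members. It was at 9.23, 9.30, 9.28, 9.19, 9.32 and 9.49 on knockout replicates 1 to 6. On the wild type arrays it was at 9.70, 9.42, 9.53, 9.59, 9.51 and 9.87. Only knockout replicate 6 reached into the wild type range, where wild type replicate 2 was the lowest array. The difference was -0.30 ± 0.0748 log2, a 1.23-fold lower level, with means of 9.30 ± 0.103 (SD, n = 6) and 9.60 ± 0.160 (n = 6). The limma adjusted p was 0.171 and the two-sided exact permutation p 0.00433. With each array left out it lay between -0.34 and -0.25, the latter without wild type replicate 6, and the unadjusted limma p was under 0.05 in 12 of 12 cases.

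On their brightest transcript clusters, the other inhibitors differed less. Cdkn2d, the p19 Ink4 inhibitor, was at 6.96 to 7.24 on the knockout and 6.79 to 7.19 on the wild type arrays, with means of 7.06 ± 0.102 and 7.01 ± 0.154 (SD, n = 6 each). Its difference was 0.05 ± 0.0729 (95% interval -0.10 to 0.21; limma adjusted p 0.759). Cdkn1b, the p27 Cip/Kip inhibitor that restrains progenitor division, was at 9.42 to 9.77 and 9.47 to 9.75, a difference of -0.05 ± 0.0660 (interval -0.19 to 0.09; limma adjusted p 0.752). The genotypes overlapped almost wholly for both genes on these clusters. A dimmer transcript cluster of Cdkn1b was at 5.96 to 6.48 and 6.28 to 6.80, a difference of -0.23 ± 0.102 (unadjusted limma p 0.0434, adjusted 0.324). The 2 clusters of Cdkn1b thus had the same sign but not the same size, and the dimmer one lay at 6.61 or above only on wild type replicates 1, 3 and 6.

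Because the inhibitors differed in sign, pairs of them were compared on the same array, a choice made after the values were seen. Such a contrast removes any shift common to the whole array, and contrasts that share a gene are not independent. Cdkn1c minus Cdkn2c differed between genotypes by 0.51 ± 0.0988 log2, with knockout arrays at -2.51 to -2.26 and wild type arrays at -3.23 to -2.59. This contrast had no overlap and a two-sided exact permutation p of 0.00216. Cdkn1c alone already had both, and Cdkn2c differed the other way, so the contrast is not separate evidence. Cdkn2c also differed from its Ink4 relative Cdkn2d, by -0.36 ± 0.0936 (exact permutation p = 0.00866). Cdkn1c differed from its Cip/Kip relative Cdkn1b: Cdkn1b minus Cdkn1c was -0.26 ± 0.0858 (exact permutation p = 0.0152). Cdkn1b minus Cdkn2c was 0.25 ± 0.0726 (exact permutation p = 0.00433). All contrasts of Cdkn1b used its brightest transcript cluster. Its dimmer cluster, which differed by -0.23, was closer to Cdkn2c in its difference, and contrasts with it were not tested. Cdkn1c minus Cdkn2d, at 0.16 ± 0.0945, and Cdkn1b minus Cdkn2d, at -0.10 ± 0.0782, gave exact permutation p of 0.130 and 0.212. In all, 10 contrasts were computed, 3 between D cyclins, 1 between kinases and 6 between inhibitors of either family, and 6 of the 10 had an exact permutation p under 0.05 without adjustment.

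**Figure D2:**
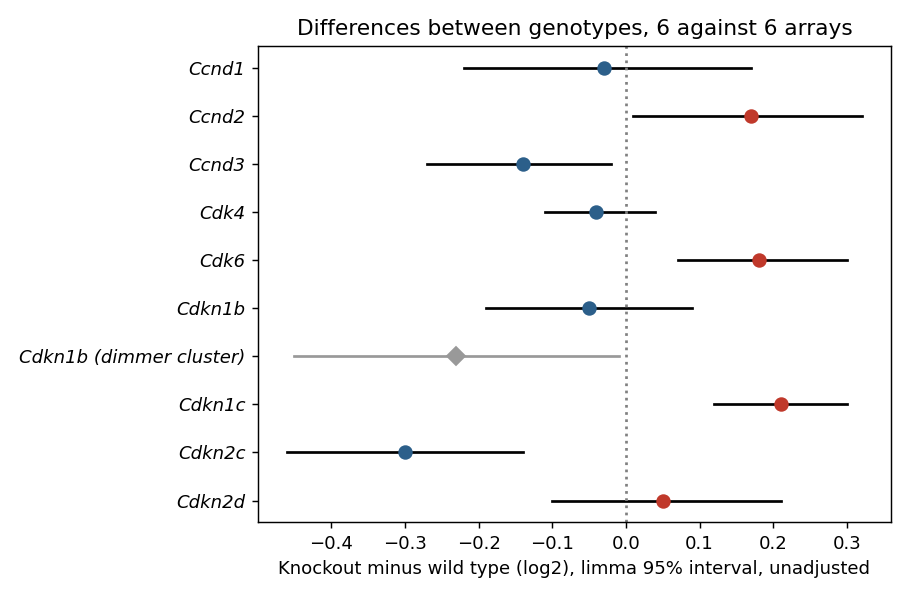
Difference in log2 level between genotypes (knockout minus wild type, 6 against 6 arrays) for each member and, in grey, the dimmer transcript cluster of Cdkn1b; bars are unadjusted 95% limma intervals. Cdk6, Ccnd2 and Cdkn1c lie above 0 and Cdkn2c and Ccnd3 below it, with no member past the adjusted threshold.

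Of the kinases, Cdk6 was higher in the knockout and Cdk4 differed little. Cdk6 was at 12.25, 12.08, 12.21, 12.27, 12.19 and 12.09 on knockout replicates 1 to 6. The wild type arrays had their lowest level at 11.85, their median at 11.99 and their highest level at 12.11. Knockout replicates 2 and 6 lay within the wild type range and the other 4 lay above it. The difference was 0.18 ± 0.0525 log2, or 1.13-fold, with a knockout mean of 12.18 ± 0.0820 (SD, n = 6), a wild type SD of 0.0919 (n = 6), a limma adjusted p of 0.198 and a two-sided exact permutation p of 0.0108. It was between 0.15 and 0.20 with each array left out, and 0.14 both after median centring and without both arrays numbered 1.

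Cdk4 was the brightest and the steadiest member. Its knockout arrays lay between 13.09 and 13.14 and its wild type arrays between 13.10 and 13.23. The difference was -0.04 ± 0.0335 log2 (95% interval -0.11 to 0.04), with a limma adjusted p of 0.632. Cdk4 minus Cdk6 on the same array averaged 0.94 for knockout and 1.16 for wild type mice, a difference of -0.22 ± 0.0559 with a two-sided exact permutation p of 0.0130. The knockout arrays ran from 0.84 to 1.06 and the wild type arrays from 1.03 to 1.25, so the genotypes overlapped slightly, and most of this contrast is the Cdk6 difference itself. It was chosen after the values were seen, and it kept an exact permutation p of at most 0.0476 when single arrays were left out, when both arrays numbered 1 were, and after quantile normalisation.

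Among the D cyclins, Ccnd2 was higher in the knockout, Ccnd3 lower, and Ccnd1 differed by less than its spread. Ccnd2, the D cyclin of early progenitors and lymphocytes, was at 11.06, 10.89, 11.01, 10.82, 10.78 and 10.65 on knockout replicates 1 to 6. On the wild type arrays it was at 10.78, 10.70, 10.59, 10.86, 10.69 and 10.60. Knockout replicates 1, 2 and 3 lay above all wild type arrays, and the other 3 within their range. The difference was 0.17 ± 0.0722 log2 (limma adjusted p 0.318, two-sided exact permutation p = 0.0584), with means of 10.87 ± 0.151 and 10.70 ± 0.104 (SD, n = 6 each). It depended on the array left out: the unadjusted limma p was under 0.05 in 5 of 12 cases and highest, 0.0905, without knockout replicate 1, where the difference was 0.13. Median centring gave 0.125 with an unadjusted limma p of 0.118. Markers of B and plasma cells, 7 of 7 higher in the knockout, averaged 7.19 to 8.05 on the knockout arrays and 6.92 to 7.32 on the wild type arrays, although B220-positive cells had been removed. The 8.05 was knockout replicate 1, where Igha, an antibody heavy chain, was at 12.70 against at most 8.97 on the other knockout arrays, and the list's highest mean was 7.65 without it. Ccnd2 had r = 0.43 with this list (permutation p = 0.239; Spearman rho = 0.29, permutation p = 0.385; genotype means removed), and 0.10 without that array.

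Ccnd3 was at 11.52, 11.59, 11.71, 11.63, 11.70 and 11.86 on knockout replicates 1 to 6. It was at 11.82, 11.76, 11.79, 11.86, 11.71 and 11.93 on wild type replicates 1 to 6. All knockout arrays but replicate 6 lay below the lowest wild type array, replicate 3 by less than the decimals printed. The difference was -0.14 ± 0.0579 log2, or 1.10-fold, with means of 11.67 ± 0.117 and 11.81 ± 0.0777 (SD, n = 6 each), a limma adjusted p of 0.296 and a two-sided exact permutation p of 0.0390. Without knockout replicate 1 it was -0.11 (unadjusted limma p 0.0694), and without wild type replicate 6 it was -0.117 (0.0704). The unadjusted p was under 0.05 in 7 of 12 cases with 1 array left out; it was also above 0.05 without knockout replicate 2 (0.0657), knockout replicate 4 (0.0571) and wild type replicate 4 (0.0588). Quantile normalisation gave 0.0571 and the Xist level as a covariate 0.0616. Ccnd2 minus Ccnd3 on the same array differed by 0.31 ± 0.115 (exact permutation p = 0.0281), and by 0.239 (exact permutation p = 0.0563) without knockout replicate 1. That p was also above 0.05 without knockout replicate 2, 3 or 4, and without wild type replicate 3 or 6.

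Ccnd1, the D cyclin best known from adherent cells, was at 8.50 to 8.95 on the knockout and 8.62 to 9.04 on the wild type arrays. Its difference was -0.03 ± 0.0899 log2 (95% interval -0.22 to 0.17; limma adjusted p 0.916), and its SE was the largest of the members. Stromal markers, among which Col1a1 and Sparc are bright, averaged 8.83 to 9.11 and 8.81 to 9.21, and overlapped in the same way. Ccnd1 minus Ccnd2 and Ccnd1 minus Ccnd3 gave exact permutation p of 0.115 and 0.396.

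How the members varied from mouse to mouse was compared after the genotype means were removed. Of 36 pairs, 1 had a permutation p under 0.05 and 0 passed after Benjamini-Hochberg adjustment. That pair was Ccnd3 and Cdkn2c, with Pearson r = 0.77 (permutation p = 0.00220, adjusted 0.0792) and Spearman rho = 0.67 (permutation p = 0.0219, adjusted 0.789) over 12 arrays. Both genes were highest on replicate 6 of either genotype (Ccnd3 11.86 and 11.93, Cdkn2c 9.49 and 9.87 for knockout and wild type). A correlation without that pair of arrays is not given here, so its weight in this relation is open. The correlation was 0.84 within the knockout and 0.84 within the wild type, and 0.75 without the arrays farthest from the median of Ccnd3, knockout replicates 1 and 6. Ccnd2 and Ccnd3 had r = -0.52 (permutation p = 0.128, adjusted 0.810) and rho = -0.38 (permutation p = 0.258, adjusted 0.884), but r was 0.05 without those same arrays, so that relation rested on them. Values between the lowest, -0.53 for Ccnd1 and Cdk4, and the highest, 0.77, were negative for 24 pairs and positive for 12.

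**Figure D3:**
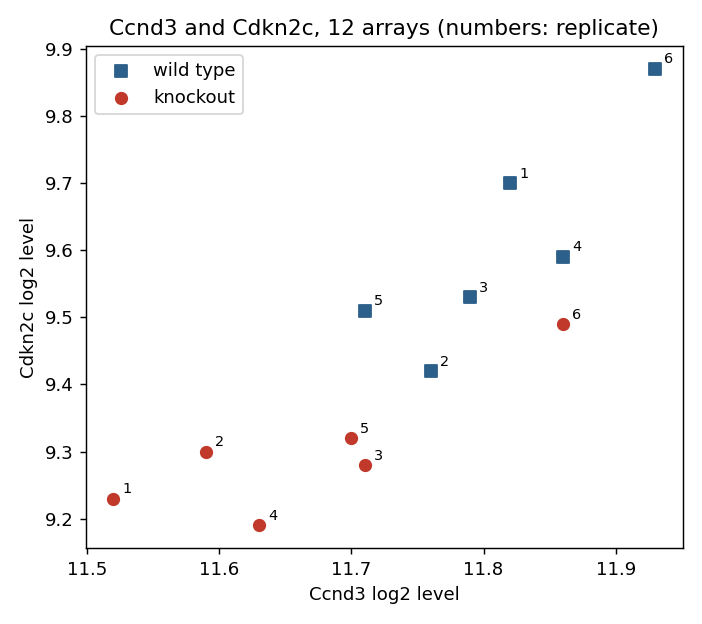
Log2 level of Cdkn2c against that of Ccnd3 on 12 arrays, with wild type as blue squares and knockout as red circles, numbered by replicate. Within each genotype, arrays with more Ccnd3 signal had more Cdkn2c signal (r = 0.84 in each).

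Members were then set against the mean level of 12 lists of cell type and proliferation markers, a comparison added after the values were seen. Of 108 relations with genotype means removed, 9 had a permutation p under 0.05 and 0 passed after adjustment; the smallest adjusted p was 0.515. Cdkn2c had r = 0.76 with the erythroid list (permutation p = 0.00625, adjusted 0.515; Spearman rho = 0.57, permutation p = 0.0523, adjusted 0.591), but r = 0.26 without knockout replicate 6 and wild type replicate 6, so it rested on them. Ccnd3 had r = 0.67 with the same list (permutation p = 0.0275, adjusted 0.515; Spearman rho = 0.58, permutation p = 0.0649, adjusted 0.591), and 0.15 without those arrays. With the list of S phase and mitosis genes, Ccnd3 had r = 0.69 (permutation p = 0.0154, adjusted 0.515; Spearman rho = 0.53, permutation p = 0.102, adjusted 0.591) and 0.32 without the same arrays. Cdkn2c had r = 0.60 with that list (permutation p = 0.0552; Spearman rho = 0.51, permutation p = 0.0998) and -0.09 without them. The remaining relations under 0.05 had permutation p from 0.0199 to 0.0456 and adjusted p of 0.515. They were Ccnd1 (r = -0.66) and Cdk4 (0.60) with megakaryocyte markers, and Ccnd2 with stem and progenitor (0.62) and monocyte (0.66) markers. The last were Cdkn1b with T and NK (0.67) and dendritic (0.62) markers. Without the arrays farthest from each list's median, r was, in this order, -0.51, 0.69, 0.29, 0.54, 0.31 and 0.22. The permutation p of Spearman rho for these relations ran from 0.0435 to 0.14. The lists thus did not single out 1 cell type. The erythroid list, 6 of 7 genes lower in the knockout, averaged 11.15 to 11.51 on the knockout and 11.29 to 11.68 on the wild type arrays. The list of S phase and mitosis genes, 9 of 9 lower, averaged 11.15 to 11.27 and 11.26 to 11.39. The part of either in the lower Cdkn2c and Ccnd3 was not tested.

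The genes whose genotype-centred pattern over the 12 arrays was most like each member are a description only, since they are the highest of 17798 genes compared. For Cdkn2c they were Ackr1 (r = 0.92), the Duffy antigen receptor, D030047H15Rik (0.92) and Nt5c3 (0.91), a nucleotidase. For Ccnd3 they were Suox (0.94), sulfite oxidase, Zfp78 (0.94) and Arcn1 (0.92), a subunit of the COPI coat. For Ccnd2 they were Psmb5 (0.95), a catalytic proteasome subunit, Gpkow (0.94) and Muc13 (0.94), a mucin. For Ccnd1 they were 9930012K11Rik, Cpm and Lancl3, each at 0.87. For Cdk4 they were Gtpbp8 (0.96), Dcun1d5 (0.95) and Wasf3 (0.93). For Cdk6 they were Mib1 (0.93), a ubiquitin ligase of Notch ligands, Exo5 (0.87) and Syncrip (0.85). For Cdkn1c they were Ifne (0.94), Trpm1 (0.90) and 3110082J24Rik (0.89). For Cdkn1b they were Ypel3 (0.91), Mettl7a1 (0.90) and Grcc10 (0.90), and for Cdkn2d Angptl8, Csnk1g3 and Olfr981, each at 0.86.

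Genes around the members were taken from 5 lists, 65 genes in all, of which 62 were tested. At an unadjusted limma p under 0.05 there were 16 lower and 2 higher in the knockout, 29% of those tested against 14.9% of all transcript clusters, and 0 passed the adjusted threshold. The median difference was -0.061 over these genes and 0.0152 over all transcript clusters. Lower levels of cell cycle genes in these arrays were known when the lists were written, so the counts are not independent evidence.

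Targets and partners of the D cyclin kinases were mostly lower, also after median centring and quantile normalisation. Of 13 pocket protein and E2F genes 12 were lower, 6 of them at an unadjusted limma p under 0.05. Of all transcript clusters, 6.39% were called lower at that p. E2f2, an activating E2F, averaged 9.55 on the knockout and 9.90 on the wild type arrays and differed by -0.35 ± 0.122 log2 (limma adjusted p 0.238). Rb1, the retinoblastoma gene itself, differed by -0.19 ± 0.0755, E2f8, a repressor E2F, by -0.13 ± 0.0518, and Tfdp2, a dimerisation partner, by -0.18 ± 0.0711. Without knockout replicate 1 the unadjusted limma p was 0.0541 for Rb1, 0.0616 for Tfdp2, 0.0451 for E2f8 and 0.0145 for E2f2. After quantile normalisation it was 0.0852 for E2f8 and at most 0.0428 for Rb1, Tfdp2 and E2f2. The list's mean level was 9.90 to 10.06 on the knockout arrays and 10.05 to 10.20 on the wild type arrays. Of the 13 genes of cyclin E, cyclin A and Cdk2, 11 were lower, 5 at an unadjusted limma p under 0.05. Cdk2, the kinase that acts after Cdk4 and Cdk6, differed by -0.17 ± 0.0502 (limma adjusted p 0.207), and Ccnh, a subunit of the CDK-activating kinase, by -0.14 ± 0.0417 (0.201). Ccne2, a cyclin E, differed by -0.18 ± 0.0729 and Ccna2, cyclin A, by -0.10 ± 0.0359. Of 9 genes of S phase and mitosis 9 were lower, 5 at an unadjusted limma p under 0.05, such as Birc5, survivin (-0.19 ± 0.0555), and Aurka, Aurora kinase A (-0.15 ± 0.0501). Plk1 and Top2a differed by -0.12 ± 0.0424 and -0.11 ± 0.0460.

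Genes upstream of the D cyclins were split in direction, and the split depended on the scaling. Of 17 genes that induce D cyclins, turn them over or act beside the inhibitors, 12 were higher and 5 lower, and 2 had an unadjusted limma p under 0.05, both higher. Median centring turned this to 7 higher and 10 lower, while quantile normalisation left 12 and 5. Mycn, which is active in stem cells, was at 7.18 and 6.92, a difference of 0.26 ± 0.0790 log2 (limma adjusted p 0.214), and Foxo1, a factor of quiescence, differed by 0.08 ± 0.0367 (0.335). The unadjusted limma p of Foxo1 was 0.0491, but 0.367 after median centring and 0.221 after quantile normalisation; that of Mycn was 0.0188 and 0.0141. Cdkn2b (p15), another Ink4 inhibitor, differed by 0.15 ± 0.0729 and Zbtb17, the Myc partner Miz-1, by -0.10 ± 0.0452. Of 10 p53 target genes tested, 6 were lower and 4 higher, and 0 had an unadjusted limma p under 0.05. Eda2r differed by 0.09 ± 0.0448 at a level near the 20th percentile, Sesn2 by -0.11 ± 0.0687, Bbc3 by -0.11 ± 0.0793 and Mdm2, the ubiquitin ligase of p53, by -0.08 ± 0.0597.

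**Figure D4:**
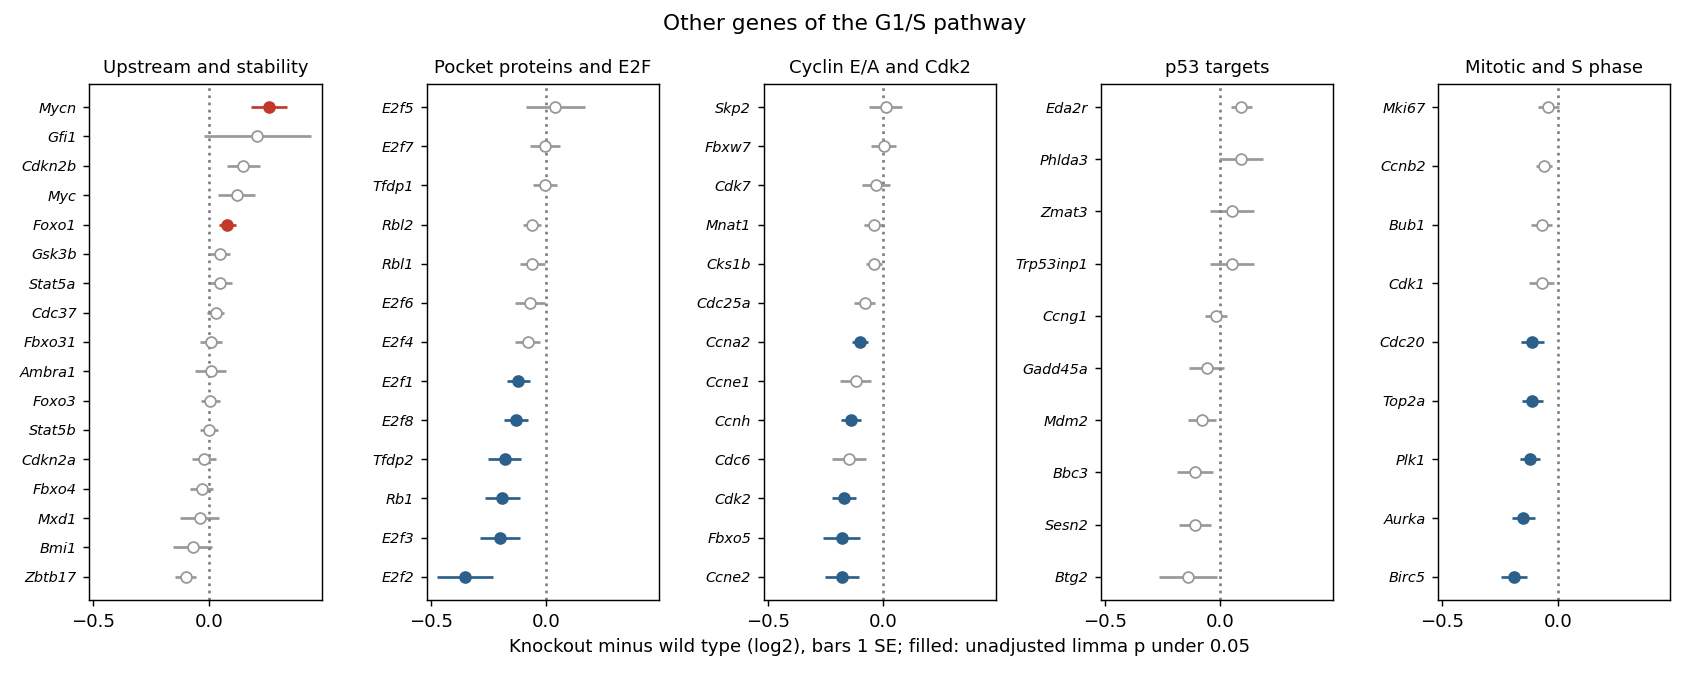
Difference in log2 level (knockout minus wild type, 6 against 6 arrays) of other genes of the pathway in 5 lists, with bars of 1 SE; filled points have an unadjusted limma p under 0.05. In the lists of pocket proteins and E2F, of cyclin E, cyclin A and Cdk2, and of S phase and mitosis, 16 points are filled and all lie below 0, while 2 upstream genes are filled above 0.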

How the data were processed

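Values are the authors' deposited log2 levels per transcript cluster, which the series design text says were summarised by RMA16 in GeneSpring GX 11; the log2 scale was inferred from their range, 3.18 to 14.33. RMA draws arrays toward 1 distribution, so a shift of most genes would be hidden. Probe annotation at summarisation and genome build are not given in the sources used here. Of 34760 transcript clusters, GEO's platform annotation names 1 gene for 21640, several for 1321 and none for 11799.

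The filter kept 29541. The genotypes were compared by limma 3.58.1 (R 4.3.3; lmFit and eBayes without a covariate, Benjamini-Hochberg over all kept) and by two-sided exact permutation of 12 values in SciPy 1.17.1; correlations used 100000 permutations within genotype. The p-values of the genotype comparison judge a difference against the spread between arrays, each from 1 mouse. The limma script was first tested on simulated data.

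Members and lists were chosen with earlier results of these data known. Named are all members, Nfil3 as the check of the labels, up to 4 genes of lowest p per pathway list, and the 3 genes most like each member; Kit, Cd34 and other markers were named after their values were seen. Alternatives covered filter, scaling, variance model, array weights, Xist as a covariate, the replicate number as a block, arrays left out and the row per gene. The contrasts, the marker list correlations, GC box and CCAAT were added after seeing the data. Protein sequences were not used here.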

Additional observations from a re-analysis of the deposited data

Results flagged for a closer look

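Among 62 sets of 6 values (each member, the dimmer Cdkn1b cluster, Nfil3 and the named pathway genes, by genotype), 3 had an array whose gap to its nearest neighbour exceeded 0.625 of the genotype's range, and chance flags about 1 set in 20. None of the 3 was a member. Nfil3 was at 7.66 in wild type replicate 1, against at most 7.18 on the other wild type arrays. Rb1 was at 11.40 in wild type replicate 6, against at most 11.14. Sesn2 was at 7.95 in knockout replicate 3, against at least 8.29 on the other knockout arrays.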

How the results depend on the processing

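No member passed the adjusted threshold under any of 21 alternative limma fits. The 5 members at an unadjusted p under 0.05 became 3 with the Xist covariate and without both arrays numbered 1, and 3 to 5 with 1 array left out. Counts of all transcript clusters past the adjusted threshold were 5 with array weights, 3 with the Xist covariate and 0 to 4 with 1 array left out, against 0. The 18 pathway genes at an unadjusted p became 11 without both arrays numbered 1 and 11 to 18 with 1 array left out, 26 after median centring and 12 after quantile normalisation. The Ccnd1 difference ran from -0.068 to 0.028 with 1 array left out, positive at 0.014, 0.021 and 0.028 when knockout replicate 3, knockout replicate 6 and, last, wild type replicate 2 was missing. Uncentred values gave 2 member correlations past the adjusted threshold, against 0. Uncentred values also hold the genotype differences, which centring removes by construction. For Cdkn1c and Cdkn2c, r was -0.80 uncentred and -0.40 centred. Whether replicate numbers pair the mice is unsettled: the labels do not say so, correlations of deviations between same-numbered arrays ran from -0.033 to 0.462, and 3 of 6 knockout arrays correlated best with their own number. With the replicate block 5 members and 19 pathway genes had an unadjusted p under 0.05. The number of arrays limits precision.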
